A study of Mus musculus with 2 samples.

Results

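The genes described here were 35 genes of the cell cycle, chosen by name as a set that marks dividing cells in a fracture callus. Of these, 32 were among the 19430 genes named in the count tables. The levels of *Rrm2*, *Ccnb1* and *Cdc20* were not analysed here, and these genes enter only the counts of promoter motifs. The set was divided by role into 12 genes of DNA replication, which act at or before S phase, and 21 mitotic genes, which act in G2 and mitosis, with 11 and 19 of them measured. *Mki67* and *Top2a*, general marks of cycling cells, formed a pair of their own.

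A cell that enters the cycle first switches on E2F target genes, among them the MCM helicase subunits that load onto DNA and the enzymes that supply nucleotides. The genes of the spindle, the kinetochore and the mitotic kinases are switched on later, largely by complexes that bind CHR and CCAAT promoter elements. In the growth plate, and in the cartilage of a healing fracture, young chondrocytes divide and then leave the cycle before they enlarge into hypertrophic chondrocytes, which make collagen X.

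The tissue came from 1 control mouse (Nf1[+/flox], without Cre) and 1 Nf1Postn littermate (*Postn*-cre;Nf1[flox/-]), both female and 8 weeks old. In the latter, Cre made under the periostin promoter deletes the floxed allele of *Nf1*, a Ras inhibitor, in the periosteum, while the other allele is missing in every cell. Each control cell carries 1 floxed allele, which is not recombined. Both distal tibias were broken, held with an intramedullary pin, collected 10 days later, fixed in formalin, decalcified in 14% EDTA for 3 days and embedded together in 1 block. The labels number the samples as biological replicates, but they are 2 sections of that block, each with both calluses, so they are called section 1 and section 2 and say nothing of the spread between animals. With 1 mouse per genotype no test between genotypes was possible, and no p-value is given. Values are UMIs (unique molecular identifiers, each standing for 1 captured probe pair) per 1000000 UMIs of the same spots, written CPM, with exact Poisson 95% intervals that cover counting error only.

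The deleted gene, *Nf1*, was read at 87.8 and 79.0 CPM in the control and 65.6 and 49.6 CPM in the Nf1Postn callus, in probes whose place relative to the deletion is not given in the sources used here. Depth differed between the calluses. The control callus covered 1700 spots in section 1 and 1778 in section 2, with medians of 7053 and 5718.5 UMIs per spot, and the Nf1Postn callus covered 1341 and 1556 spots, with medians of 2030 and 3239.75. The members held 28567 UMIs, with a median of 4 per control spot and 1 per Nf1Postn spot. A spot can hold several cells, and more dividing cells cannot be told apart from more RNA per cell. The tissue also differed: the summed markers of mature muscle were at 13528 and 22053 CPM in the control callus and 63456 and 109797 CPM in the Nf1Postn callus, those of cartilage at 50127 and 31647 against 4806 and 9011 CPM, and those of red blood cells at 163 and 294 against 1848 and 1661 CPM. Every one of the 14 marker lists had all of its measured genes above 0 in each section of each callus.

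The promoters of 4 members are shown because they carry the motifs by which the mitotic and the replication members differed. The sequences are RefSeq windows placed in GRCm39 by exact match, and each shows the 170 bases before the annotated start on the gene's own strand. Capitals mark the CHR motif TTTGAA, the CCAAT box and E2F motifs, spelled as TTCCCGC, as TTGGCGC, as TTCGCGC or as TTGCCGC, on either strand. The lines show *Mki67* at chr7:135318109-135318278, minus strand, *Cdk1* at chr10:69188743-69188912, minus strand, *Kif11* at chr19:37364660-37364829, plus strand, and *Mcm6* at chr1:128287443-128287612, minus strand.
Mki67: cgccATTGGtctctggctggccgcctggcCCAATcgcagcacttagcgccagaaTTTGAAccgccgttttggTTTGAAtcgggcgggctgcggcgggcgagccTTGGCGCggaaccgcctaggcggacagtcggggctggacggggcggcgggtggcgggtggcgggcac
Cdk1: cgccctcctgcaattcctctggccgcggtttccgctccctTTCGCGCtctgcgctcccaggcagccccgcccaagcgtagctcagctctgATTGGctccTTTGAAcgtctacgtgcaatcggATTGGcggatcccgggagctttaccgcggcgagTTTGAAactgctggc
Kif11: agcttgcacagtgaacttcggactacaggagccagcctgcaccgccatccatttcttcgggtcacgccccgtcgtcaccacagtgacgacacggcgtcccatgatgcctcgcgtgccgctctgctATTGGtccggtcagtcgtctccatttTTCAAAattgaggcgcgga
Mcm6: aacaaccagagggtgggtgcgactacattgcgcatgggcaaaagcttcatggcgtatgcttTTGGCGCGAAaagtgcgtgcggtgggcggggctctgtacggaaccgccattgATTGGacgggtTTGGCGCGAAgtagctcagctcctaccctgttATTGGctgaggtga
The *Mki67*, *Cdk1* and *Kif11* windows each held CHR and CCAAT, with the CHR nearest the start at -98, -15 and -19 from it. In the bases shown, *Mki67* and *Cdk1* also held 1 E2F match each, at -67 and -130. The *Mcm6* window held 5 E2F matches, some of which overlap and 4 of which lie in the bases shown, 2 CCAAT boxes and no CHR. A promoter window of 250 bases before to 50 after the start was found for 29 of the 35 members (not for *Mcm4*, *Ccne2*, *Ccna2*, *Aurkb*, *Kif20a* and *Tpx2*). CHR was in 12 of 17 mitotic members (70.6%) and 1 of 10 replication members (10%), against 20.2% of 27025 genes with a window of that length. CCAAT was in 15 of 17 mitotic members (88.2%) and 7 of 10 replication members (70%), against 41.1% of all. E2F was in 2 of 17 mitotic members (11.8%) and 5 of 10 replication members (50%), against 10.9% of all. All 12 mitotic windows with CHR also held CCAAT, a pairing found in 7.97% of all genes. These counts include *Rrm2*, *Ccnb1* and *Cdc20*, whose levels were not analysed, and *Ccnb1* is 1 of the 2 mitotic members with E2F. A match of letters is a description and does not show that a factor binds there.

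The first question was where in the control callus the members were highest. Spots were grouped into 14 regions by their transcriptomes with all cell cycle lists left out of the grouping, and each region is named by its leading gene. The region led by *Ucma*, a secreted protein of young cartilage, had the highest summed level of the members among regions with at least 10 control spots in each section, at 1540 CPM in section 1 and 1514 CPM in section 2. It held 200 spots, which were 5.75% of the control spots, 11.3% of their UMIs and 19.1% of their member UMIs. Its other leading genes, among them *Matn3*, *Col9a3*, *Acan* and *Hapln1*, are cartilage matrix genes. The region had 1 spot in the Nf1Postn callus, so no genotype comparison could be made there.

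With the sections pooled, the lowest control level was in the region led by *Myh7*, the slow muscle myosin, at 252 and 395 CPM, and the highest and lowest regions differed by 2.51 on the log2 scale. The other muscle region, led by *Myh8*, an immature muscle myosin, stood at 497 and 381 CPM and was the lower of the pair in section 2. Above them lay the region led by *Acp5*, an osteoclast gene, at 1004 and 898 CPM and the region led by *Gpnmb* at 933 and 820 CPM. The region led by *Hba-a2*, a hemoglobin gene, stood at 1002 and 602 CPM, and that led by *Bglap*, the osteocalcin gene, at 681 and 814 CPM. The hypertrophic cartilage region led by *Col10a1* stood at 763 and 690 CPM, and the region led by *Cfd*, an adipocyte gene, at 689 and 642 CPM. The *Ucma*-led region stood above all of these in both sections. The authors named 96.2% of the section 1 control spots of the *Acp5*-led region woven bone. Its leading genes include *Dmp1*, from the osteoblast marker list, beside osteoclast genes. The regions led by *Hba-a2* and *Bglap* changed places between sections by more than their distance from the *Acp5*-led and *Gpnmb*-led regions, so the order in the middle of this list is not settled.

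**Figure D1:**
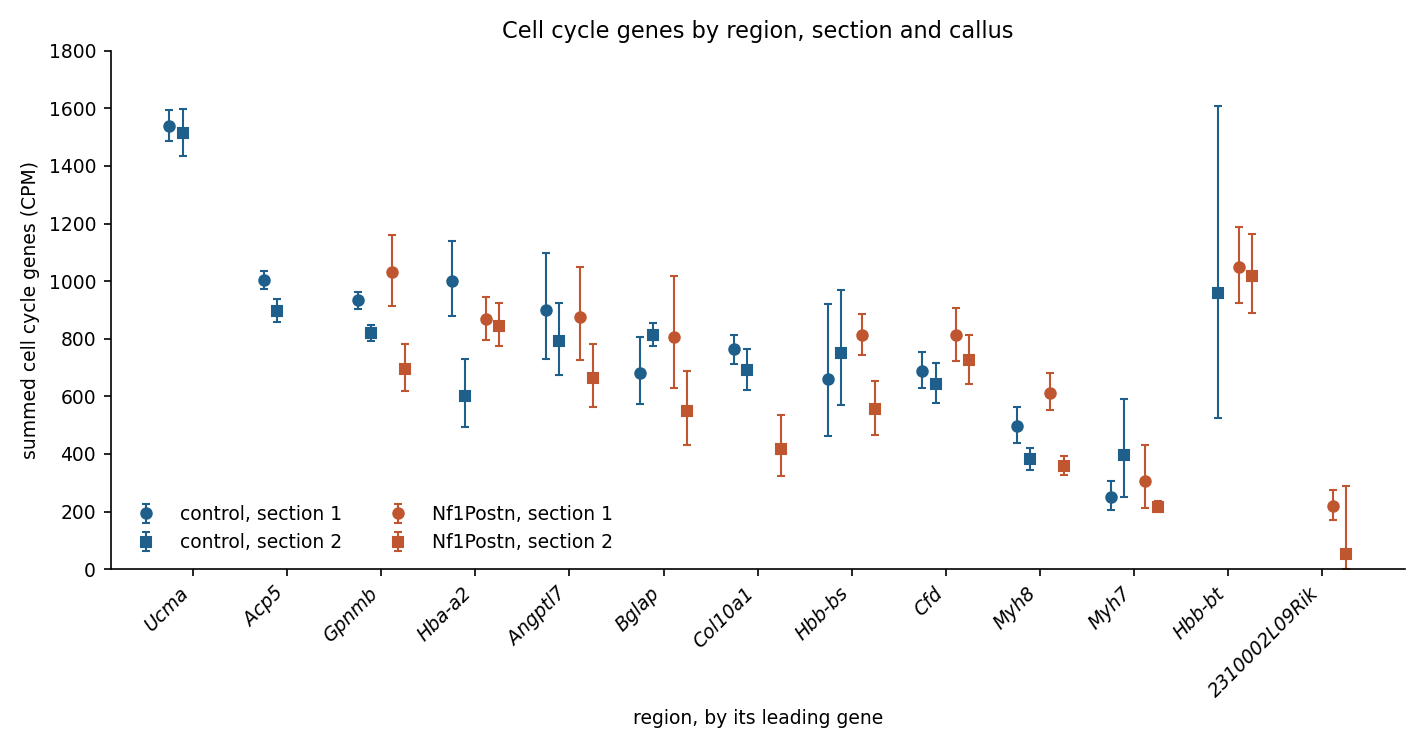
Summed CPM of the 32 measured members (vertical axis) in each region, named by its leading gene, for each callus and section with at least 10 spots; bars are exact Poisson 95% intervals. The *Ucma*-led region stands at 1540 and 1514 CPM in the control callus, and the Nf1Postn callus reaches its own highest values, 1049 and 1019 CPM, in the *Hbb-bt*-led region and 1031 CPM in section 1 of the *Gpnmb*-led region.

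Spots of the *Ucma*-led region were deep, so each spot was also thinned to 1000 UMIs. Its level was then 1220 CPM, against 964 CPM in the *Acp5*-led and 768 CPM in the *Col10a1*-led region. At this equal depth 40% of its spots held a UMI of a mitotic member (exact binomial 95% interval 33.2 to 47.1). The share was 36.0% (32.3 to 39.8) in the *Acp5*-led, 31.0% (27.7 to 34.6) in the *Gpnmb*-led and 33.1% (28.4 to 38.0) in the *Col10a1*-led region. These 3 intervals overlapped that of the *Ucma*-led region. The *Myh7*-led share, 12.2% (6.49 to 20.4), did not. Before thinning these shares were 95.5% in the *Ucma*-led region, at a median of 12991.8 UMIs per spot, and 32.7% in the *Myh7*-led region, at a median of 4538.25. Mature muscle fibres do not divide, so the *Myh7*-led share is the nearest thing here to a background. The summed mitotic level was 1.27 times the summed replication level in the *Ucma*-led region and 0.925 times in the *Gpnmb*-led region. A high value was not particular to the *Ucma*-led region, as it was 1.33 in the *Hba-a2*-led and 1.27 in the *Angptl7*-led region. By section it was 1.33 and 1.14 in the *Ucma*-led and 1.12 and 1.28 in the *Acp5*-led region, so their order turned.

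The *Ucma*-led region was picked by the sum of these same members. Counts of members that are high in it, here and below, restate that choice by member and are no added support. Among 11 control regions with at least 20 spots and 100000 UMIs, 26 of 31 members with at least 20 UMIs per section were highest in the *Ucma*-led region, where 8.52% of 12562 genes were. The exceptions were *Mcm6*, a helicase subunit, *Bub1b*, a spindle checkpoint kinase, and *Kif23*, a kinesin of cytokinesis, which were highest in the *Angptl7*-led region, *Rrm1*, the large ribonucleotide reductase subunit, and *Cenpe*, a kinetochore motor, in the *Hbb-bs*-led region. Over all members, the *Angptl7*-led and *Hbb-bs*-led regions held only 258 and 93 control UMIs, so these exceptions rest on few UMIs each. For *Mcm6* the gap was slight, at 38.5 CPM against 38.4 CPM in the *Ucma*-led region. *Pcna*, the replication clamp, had 17 UMIs in all and was not ranked. Against all other control spots, 21 of 31 members were at least 1.5-fold higher in the *Ucma*-led region in both sections, where 4.96% of 12562 genes were, and 6 were at least 2-fold higher, where 2.11% of genes were. These 6 were *Top2a*, *Ccna2*, *Cdk1*, *Plk1*, *Kif11* and *Kif20a*. The median log2 ratio of the members was 0.93, and that of all genes was -0.43.

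The *Ucma*-led region was then compared with hypertrophic cartilage. The summed level in the *Ucma*-led region was 2.02-fold that of the *Col10a1*-led region in section 1 and 2.19-fold in section 2, and 1.59-fold after thinning. All 23 members that had at least 20 UMIs per section over both regions had a log2 ratio above 0 in both sections, where 34.4% of 7700 genes did. Of these, 17 were at least 1.5-fold higher (7.69% of genes), and 9 at least 2-fold higher (1.96% of genes), with 18 of 30 at least 2-fold higher in section 1 alone (4.88% of genes) and 15 of 23 in section 2 alone (7.36%). Some members passed in section 2 only through the region where they were high. *Ccnb2* had 20 UMIs against 0 there, *Top2a* 23 against 1 and *Cenpf* 22 against 2. The other 9 measured members did not pass this filter.

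Among the replication members, *Mcm3*, a subunit of the replicative helicase, stood at 147 and 153 CPM in the *Ucma*-led region and at 65.3 and 64.5 CPM in the *Col10a1*-led region. *Mcm5*, another subunit, stood at 70.9 and 86.8 against 28.5 and 28.4 CPM. In all 23 members that passed the filter, these included, both sections of the first region lay above both sections of the second, as they did in 29.2% of the 7700 genes. *Tyms*, thymidylate synthase, stood at 74.3 and 110 CPM against 62.8 and 55.0 CPM, a difference mostly of section 2.

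Among the mitotic members, *Cdk1*, the kinase that drives entry into mitosis, stood at 118 and 111 CPM against 53.6 and 45.5 CPM. *Kif11*, the kinesin that pushes spindle poles apart, stood at 44.6 and 48.0 against 10.9 and 18.96 CPM. *Cenpf*, a kinetochore protein, stood at 19.3 and 25.1 against 3.35 and 3.79 CPM. *Ccnb2*, a mitotic cyclin, stood at 29.7 and 22.8 CPM against 10.9 and 0 CPM. *Ube2c*, the ubiquitin-conjugating enzyme of the anaphase-promoting complex, stood at 16.9 and 20.6 against 2.51 and 9.48 CPM. In the *Col10a1*-led region *Kif11*, *Cenpf*, *Ccnb2* and *Ube2c* rest on 0 to 13 UMIs per section. *Mki67*, the proliferation antigen, was at 87.7 and 86.8 CPM against 36.0 and 37.9 CPM. *Top2a*, the topoisomerase that untangles chromosomes, was at 22.3 and 26.3 against 5.86 and 1.90 CPM, on 7 and 1 UMIs in the *Col10a1*-led region.

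Other genes of the cycle were read from 4 further lists. Of 27 other mitotic genes that passed the filter, 14 were at least 2-fold higher in the *Ucma*-led than in the *Col10a1*-led region (1.96% of 7700 genes). None was at least 2-fold lower, and their median log2 ratio was 1.26. Examples were *Cdca3*, a trigger of mitotic entry, at 76.3 and 68.5 CPM against 32.7 and 34.1 CPM, and *Troap*, a spindle protein, at 43.6 and 29.7 against 16.7 and 13.3 CPM. Of 18 other replication genes 3 were at least 2-fold higher (1.96% of genes), with a median of 0.87. Of 13 G1 cyclins, their partners and pocket proteins none was 2-fold apart, with a median of -0.08. The 7 inhibitors of cyclin-dependent kinases had a median of 0.74 and went both ways. *Cdkn1a*, the p21 inhibitor that holds cells out of S phase, was the 1 at least 2-fold apart in both sections, and it was lower, at 263 and 276 CPM against 604 and 599 CPM. Its log2 ratios were -1.20 and -1.12. The share of all 7700 genes at least 2-fold lower is not given here, and the lower quartile of their log2 ratios was -0.39. The inhibitors of the INK4 family stood higher in both sections, among them *Cdkn2c* at 65.9 and 64.0 against 40.2 and 22.8 CPM and *Cdkn2d* at 56.5 and 59.4 against 31.8 and 37.9 CPM. *Pttg1*, the securin, was not higher in the *Ucma*-led region, at 18.3 and 27.4 against 29.3 and 28.4 CPM.

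A finer grouping split the *Ucma*-led cartilage into 2 zones. At clustering resolution 1.0, a zone led by *Ucma* held 107 control spots, 71 of them in section 1, and a zone led by *Clec3a*, a matrix lectin, held 117, of which 93 came from the *Ucma*-led region. Cartilage markers were high in both, at 135305 and 116515 CPM in the *Ucma*-led zone and 154303 and 234748 CPM in the *Clec3a*-led zone. *Ucma* itself was at 383 and 272 CPM in the first and 163 and 282 CPM in the second, so in section 2 it did not separate them. *Col10a1* was low in both, at 77.5 and 120 CPM and at 246 and 288 CPM, beside 2103 and 1170 CPM in the *Col10a1*-led region. Markers of other tissues were mostly lower in the *Ucma*-led zone. Lower in the *Ucma*-led than in the *Clec3a*-led zone were those of mature muscle, at 2055 and 4544 against 4349 and 7806 CPM. Those of osteoclasts, at 1177 and 1022 against 2994 and 1446 CPM, and of red blood cells, at 61.9 and 58.4 against 179 and 167 CPM, were lower too. Macrophage markers, at 225 and 177 against 341 and 215 CPM, were also lower in both sections. So were those of osteoblasts, at 1733 and 1811 against 2726 and 2148 CPM. Those of regenerating muscle, at 5.22 and 18.4 against 10.1 and 27.8 CPM, and of B cells, at 2.24 and 0 against 9.09 and 6.95 CPM, were lower at low levels. Only late granulocyte markers were higher in both sections, at 253 and 53.4 against 160 and 20.9 CPM. Those of stroma, endothelium, fat and early granulocytes were lower in section 1 and higher in section 2. Their part in the difference between the zones was not tested.

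The cell cycle genes were far apart in these zones. Their sum was 2077 and 1936 CPM in the *Ucma*-led zone and 535 and 601 CPM in the *Clec3a*-led zone, a ratio of 3.88-fold in section 1 and 3.22-fold in section 2. After thinning the ratio was 3.74-fold, although the spots of the *Ucma*-led zone were deeper, with medians of 17966 and 16481.8 UMIs against 10662 and 10708.5. The replication members together differed 3.24-fold and the mitotic members 3.97-fold. The *Clec3a*-led zone lay below the *Col10a1*-led region in both sections. Low levels of the members were measured in cartilage where *Col10a1* was high and also in cartilage where it was low.

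Of the 20 members with enough UMIs, 14 were at least 2-fold higher in the *Ucma*-led zone in both sections (2.74% of 6129 genes), none was 2-fold lower (0.93% of genes), and 19 were at least 1.5-fold higher (9.53% of genes). In section 1 alone 28 of 29 were at least 2-fold higher (7.28% of genes), some of which passed only through the zone where they were high, such as *Kif20a* with 27 UMIs against 1. In section 2 alone 15 of 20 were (16% of genes). Their median log2 ratio was 1.71, and that of all genes was 0.22. The 12 members below the filter included *Pcna*, *Ccne2* and *Cenpe*.

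*Mki67* stood at 124 and 112 CPM in the *Ucma*-led zone and 14.1 and 31.3 CPM in the *Clec3a*-led zone, a log2 ratio of 2.74 (95% interval 2.12 to 3.42). *Kif11* stood at 65.6 and 61.8 against 5.05 and 17.4 CPM. *Plk1*, the polo kinase of spindle assembly, stood at 71.5 and 45.1 against 9.09 and 13.9 CPM. In all 20 members that passed the filter, both sections of the *Ucma*-led zone lay above both sections of the *Clec3a*-led zone, as they did in 38.2% of the 6129 genes. *Ccna2*, the cyclin of S phase and G2, stood at 93.9 and 96.8 against 22.2 and 13.9 CPM, and *Cdk1* at 158 and 144 against 40.4 and 41.7 CPM. *Cenpa*, the histone variant of centromeres, stood at 124 and 91.8 against 26.3 and 45.2 CPM.

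The replication members showed the same order. *Mcm3* stood at 205 and 202 CPM in the *Ucma*-led zone and 46.5 and 48.7 CPM in the *Clec3a*-led zone, and *Mcm5* at 101 and 114 against 18.2 and 27.8 CPM. *Tyms* was at 103 and 147 against 27.3 and 27.8 CPM. Of the other cycle lists, 22 of 23 other mitotic genes and 7 of 16 other replication genes were at least 2-fold higher, with medians of 1.89 and 1.00. Among kinase inhibitors 1 of 6 was, and among G1 genes 1 of 12, with medians of 0.07 and 0.40. Of all 6129 genes 2.74% were.

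**Figure D2:**
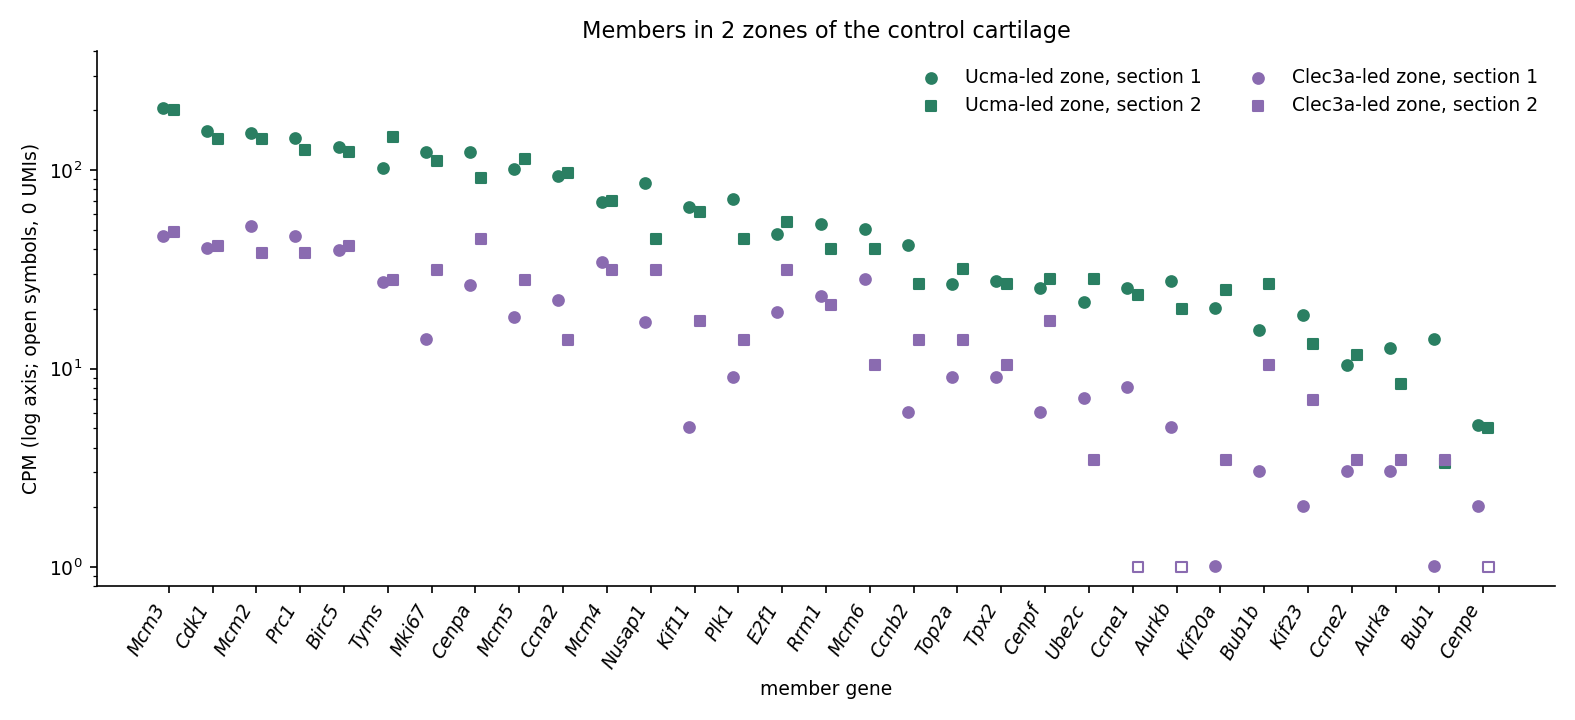
CPM (vertical axis, log scale) of 31 members (all measured ones but *Pcna*) in the *Ucma*-led zone (green) and the *Clec3a*-led zone (purple) of the control cartilage; circles are section 1, squares section 2, and open symbols mark 0 UMIs. From *Mcm3* (205 and 202 against 46.5 and 48.7 CPM) to genes of a few CPM, green symbols lie above purple ones, except for *Bub1* in section 2.

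Histone genes, which are made in S phase, had entered this grouping. The histone gene *H3c2* stood at 549 and 516 CPM in the *Ucma*-led zone and 85.9 and 125 CPM in the *Clec3a*-led zone. With histone genes left out of the grouping as well, an alternative chosen after seeing the data, a *Ucma*-led zone of 183 control spots and a *Clec3a*-led zone of 94 were found, which shared 106 of 107 and 93 of 117 spots with the first zones. The members then stood at 1767 and 1715 CPM against 474 and 621 CPM, a ratio of 3.73-fold and 2.76-fold. By the authors' own cluster names for section 1, the *Ucma*-led region held 67 spots of ossifying perichondrium at 2142 CPM and 70 spots of cartilage at 493 CPM. The 201 spots of that cartilage in the *Col10a1*-led region stood at 702 CPM, so within the authors' cartilage the order of the 2 regions was turned, also after thinning, at 386 against 766 CPM. Over whole clusters of the authors, ossifying perichondrium was highest at 1219 CPM and cartilage lowest at 608 CPM, with woven bone at 1006, distal cortical bone at 724 and progenitor at 713 CPM between them. Most of that perichondrium, 326 of 409 spots, lay in the *Gpnmb*-led region at 946 CPM, below woven bone. Its first place therefore rests on the spots in the *Ucma*-led region. In section 1 the high level of the *Ucma*-led region lay in the spots the authors named perichondrium. Those names come from a clustering of all genes, members included.

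**Figure D3:**
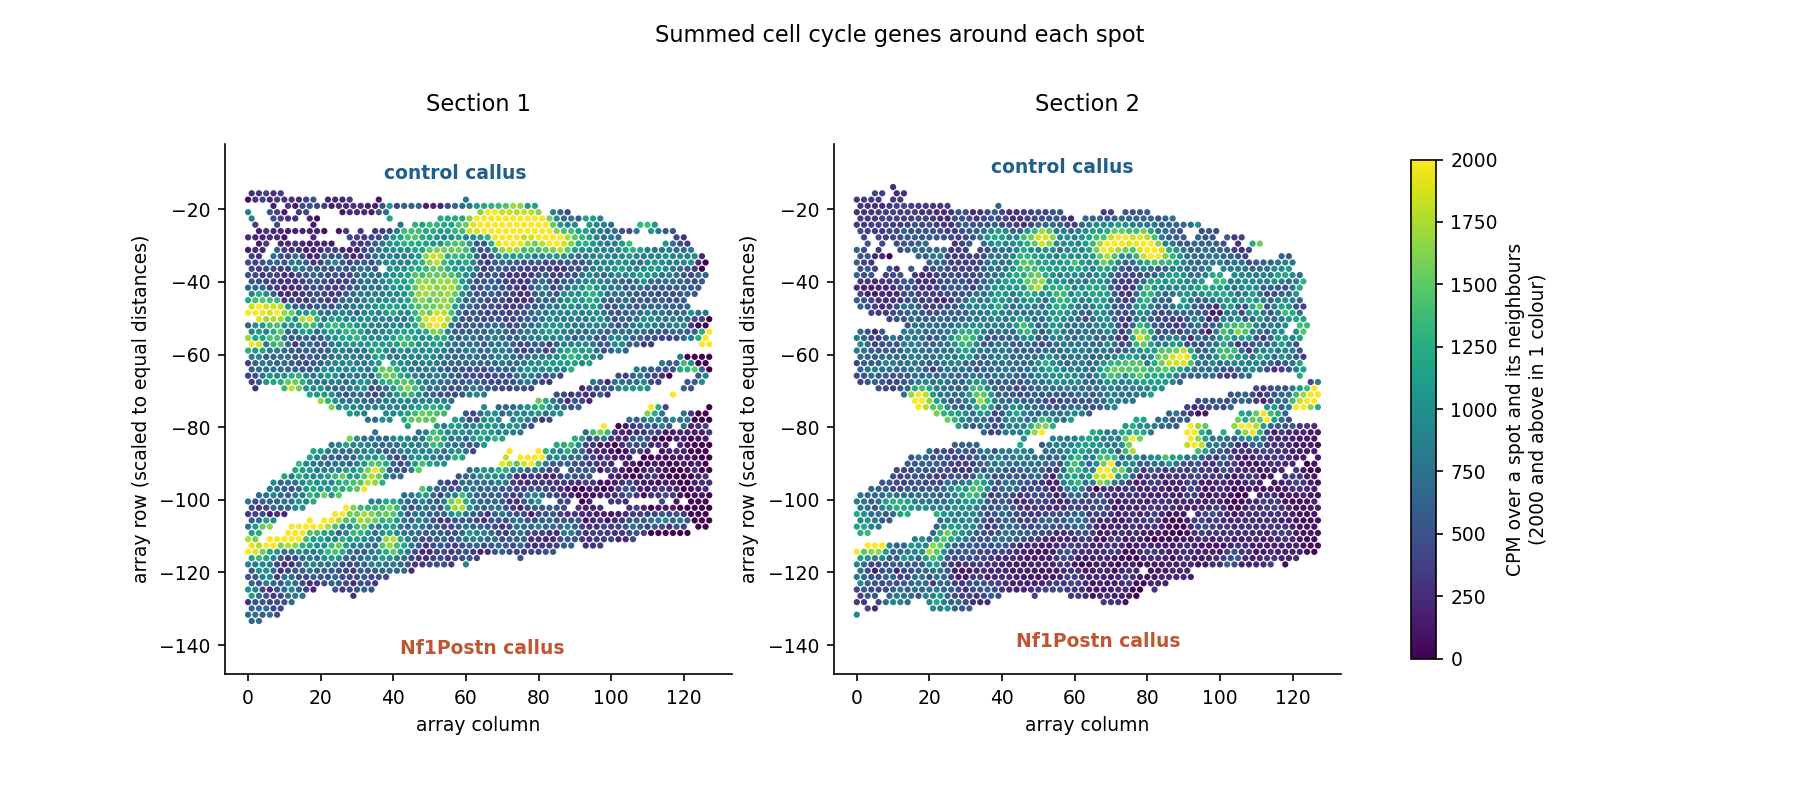
Summed CPM of the members over each spot and its neighbours (colour, cut at 2000), at the array column and row of the spot, in sections 1 and 2; the control callus lies above and the Nf1Postn callus below. In both sections the control callus shows a compact patch at or above 2000 CPM at its upper edge, while in the Nf1Postn callus the spots near that level lie along an edge of the tissue.

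Distance from the fracture plane is another way to order the same control spots. SpatialTime, the authors' relative distance of a spot from that plane, was at hand for 1344 control spots of section 1. Over the bins 0-4, 5-9, 10-14, 15-19 and 20-25, from the nearest to the farthest, the members summed to 1114, 1156, 1063, 914 and 688 CPM. The nearest bin was 1.62-fold the farthest, with a log2 ratio of 0.70 (95% interval 0.59 to 0.80), and of 0.27 after thinning, where the 2 bins stood at 902 and 750 CPM. Spots of the nearest bin were also the deepest, with a median of 10974.5 UMIs against 6480 in the farthest. With 1 section, this has no repeat. The *Ucma*-led region, picked by its high sum, gave 2499 of the 3885 member UMIs of the nearest bin, from 117 of its 297 spots. The nearest bin, and the counts of members below, therefore largely restate that region and are no separate support.

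Of 30 members with enough UMIs, 29 were higher in the nearest than in the farthest bin (38.5% of 11242 genes), 18 at least 1.5-fold (10.4%) and 7 at least 2-fold (4.53%). *Plk1* was lower in each bin than in the one before, at 32.7, 24.0, 17.9, 11.7 and 7.81 CPM. *Kif11* went from 29.0 through 26.9, 21.2 and 20.9 to 10.6 CPM. Some members changed little: *E2f1*, the transcription factor of the G1/S switch, stood at 34.1 and 32.7 CPM at the ends, and *Rrm1* at 39.0 and 33.4 CPM. *Cenpf* alone was lower near the plane, at 12.3 against 15.6 CPM. Of 31 members with at least 20 UMIs over the bins, the highest bin was 0 to 4 for 10 (17.2% of 12577 genes), 5 to 9 for 15 (14.6%) and 10 to 14 for 5 (20.9%).

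The profile was not the same in every tissue. Within the *Acp5*-led region the summed level went from 1457 CPM at 5 to 9 through 1135 and 877 to 576 CPM at 20 to 25. Within the *Gpnmb*-led region it was 809, 1035, 1110, 1008 and 878 CPM from the nearest to the farthest bin, so that its ends did not differ by much and its middle was highest. After thinning these bins stood at 722, 914, 1282, 885 and 1200 CPM. At equal depth the farthest bin was therefore well above the nearest, and the middle was still highest. Within the *Col10a1*-led region it was 494 CPM nearest the plane and 849, 796 and 836 CPM farther out. The *Ucma*-led region lay in the first 2 bins, at 1481 and 1839 CPM. The difference of these profiles was not tested.

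**Figure D4:**
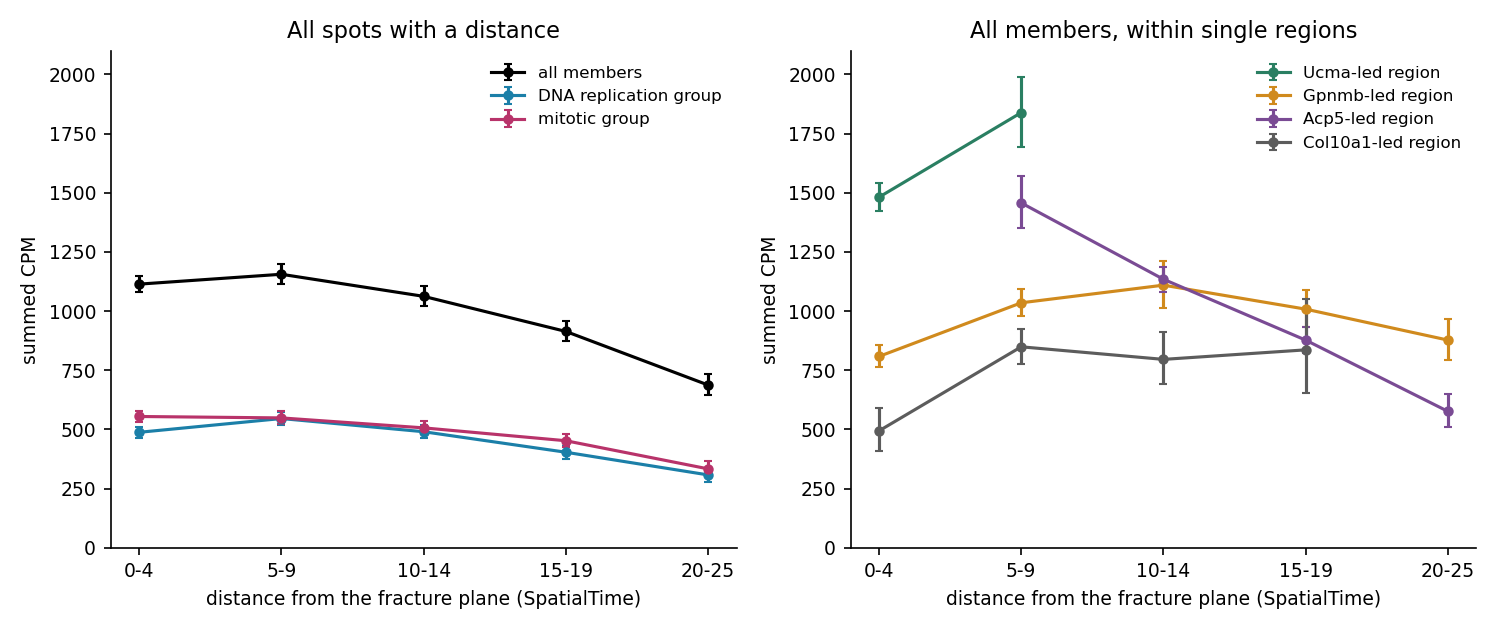
Summed CPM (vertical axis) against distance from the fracture plane in 5 bins of SpatialTime, section 1 control callus; left, all spots with a distance for all members, the replication and the mitotic group, and right, all members within 4 regions, with exact Poisson 95% intervals. The sum of all members goes from 1114 to 688 CPM, the *Acp5*-led region from 1457 to 576 CPM, and the *Gpnmb*-led region is highest in its middle bin at 1110 CPM.

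The Nf1Postn callus as a whole held fewer member UMIs for its depth. The sum was 974 and 828 CPM in the control callus and 749 and 457 CPM in the Nf1Postn callus, a log2 ratio of -0.38 in section 1 and -0.86 in section 2, or -0.68 pooled (95% interval -0.73 to -0.64). The replication members stood at 440 and 371 against 335 and 204 CPM, and the mitotic members at 473 and 399 against 331 and 209 CPM. The values of the 2 calluses did not overlap in any of these sums, but the Nf1Postn sections differed from each other by 0.71 on the log2 scale, more than the difference between calluses in section 1.

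Member by member, 31 passed the filter of 20 UMIs per section over both calluses. Of these, 27 were lower in both sections (37.1% of 13410 genes), none was higher in both (33.2%), 9 were at least 1.5-fold lower (6% of genes), and 1, *Kif11*, at least 2-fold lower (1.5% of genes), while none was at least 2-fold higher (5.79% of genes). In section 1 alone 1 member, *Kif11*, was 2-fold lower (2.32% of genes) and 1, *Ccne2*, 2-fold higher (12.7%). In section 2 alone 14 were 2-fold lower (6.3%) and none 2-fold higher (9.05%). With TMM factors (trimmed mean of M values, another scaling) 4 were 2-fold lower in both sections (2.67%). Their median log2 ratio was -0.68, and that of all genes was -0.03. Thinned to 1000 UMIs per spot, 21 members passed, 14 were lower in both sections (41.7% of 10339 genes), *Ccnb2* was the one at least 2-fold lower (1.79%), and the median was -0.46.

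*Kif11* stood at 22.6 and 20.4 CPM in the control callus and 11.3 and 9.86 CPM in the Nf1Postn callus. Other mitotic members with wide gaps were *Plk1*, at 19.3 and 14.7 against 10.1 and 4.51 CPM, and *Tpx2*, a spindle assembly factor, at 13.6 and 11.2 against 6.93 and 3.84 CPM. *Aurka*, the kinase of centrosomes, stood at 4.65 and 4.12 against 2.60 and 1.34 CPM. *Birc5*, the survivin subunit of the chromosomal passenger complex, was at 58.9 and 49.2 against 34.1 and 24.7 CPM, and *Cenpa* at 61.1 and 50.1 against 41.3 and 23.2 CPM. Both Nf1Postn values lay below both control values in 20 of the 31 members, these 6 included, as they did in 32.6% of the 13410 genes.

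Of the replication members, *Tyms* was at 57.2 and 55.7 CPM in the control and 35.2 and 18.4 CPM in the Nf1Postn callus, and the helicase subunits ranged from *Mcm5*, at 45.6 and 35.4 against 28.9 and 14.5 CPM, to *Mcm6*, at 29.2 and 23.7 against 23.1 and 18.2 CPM. *Rrm1* was close, at 35.2 and 28.0 against 34.7 and 25.1 CPM, and its values overlapped. Cyclin E2 (*Ccne2*), which acts at the start of S phase, was at 4.94 and 5.20 against 10.1 and 4.01 CPM, so its direction differed between sections. *Ccne1* did likewise, at 12.4 and 11.3 against 15.6 and 7.02 CPM.

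In 4 members, *Ccne1*, *Ccne2*, *Ccna2* and *Mki67*, the level was higher in section 1 and lower in section 2 of the Nf1Postn callus. *Ccna2* stood at 38.5 and 33.6 CPM in the control and 40.7 and 23.6 CPM in the Nf1Postn callus. *Mki67* stood at 51.6 and 49.1 CPM in the control and 74.8 and 40.4 CPM in the Nf1Postn callus, with a pooled log2 ratio of 0.07 (95% interval -0.08 to 0.22). After thinning it was above 0 in both sections (27.8% of genes), the only member that was, and with TMM factors its pooled ratio was -0.04. TMM lowered every ratio by 0.28 in section 1 and by 0.0066 in section 2, and with it 28 of 31 members were below 0 in both sections, where 52.2% of genes were.

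**Figure D5:**
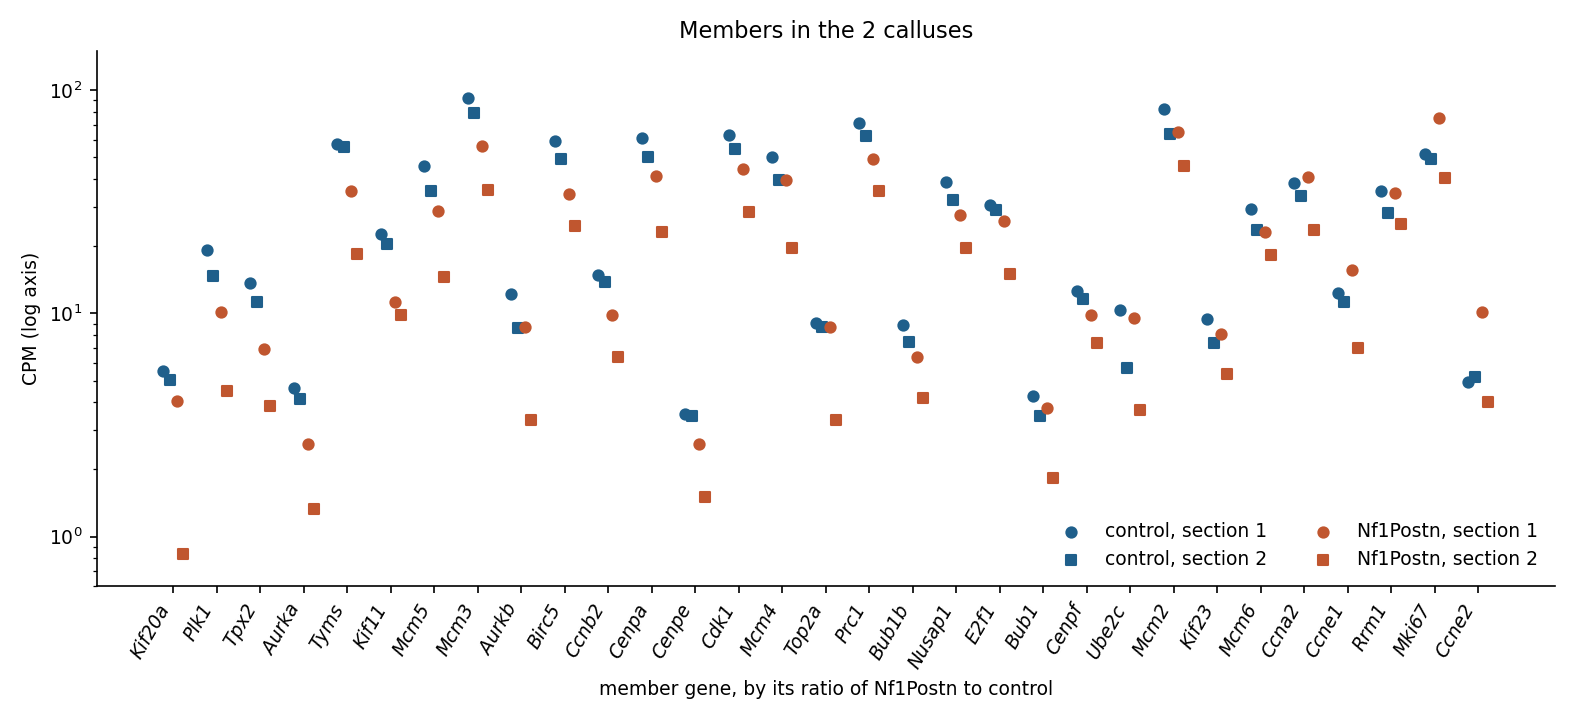
CPM (vertical axis, log scale) of 31 members (all measured ones but *Pcna*), ordered by the pooled ratio of Nf1Postn (orange) to control (blue); circles are section 1, squares section 2. *Kif11* (22.6 and 20.4 against 11.3 and 9.86 CPM) and *Plk1* lie near the left end, and *Mki67* (51.6 and 49.1 against 74.8 and 40.4 CPM) and *Ccne2* at the right end.

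The calluses differed in tissue, and the ratio moved with the tissue counted. Regions led by muscle genes held 8.80% of control and 37.5% of Nf1Postn spots. Without them the sum was 949 CPM in the control and 797 CPM in the Nf1Postn callus, a log2 ratio of -0.25. Regions with red blood cell genes among their leading genes held 14.2% of control and 52.4% of Nf1Postn spots, and without these the sum was 908 and 444 CPM, a ratio of -1.03. Over the 8 regions with enough spots in both calluses (at least 20 in each and 10 per section), the ratio was -0.50 as measured and -0.09 when the Nf1Postn values were weighted to the control's mix of regions, with 0.15 in section 1 and -0.27 in section 2. These 8 held 62.8% of control and 74.3% of Nf1Postn spots and left out the *Ucma*-led and *Acp5*-led regions, which held 19.1% and 25.3% of the control's member UMIs. That weighting was chosen after seeing the data.

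Within single regions the Nf1Postn callus had no uniform direction. The log2 ratio of the sum was 0.14 and -0.24 in sections 1 and 2 of the *Gpnmb*-led region, 0.24 and -0.57 in the *Bglap*-led region, -0.20 and 0.49 in the *Hba-a2*-led region, 0.30 and -0.09 in the *Myh8*-led region, 0.28 and -0.86 in the *Myh7*-led region and 0.30 and -0.43 in the *Hbb-bs*-led region. In these 6 the sections went opposite ways. In the *Cfd*-led region the Nf1Postn callus was higher in both, at 812 and 725 CPM against 689 and 642 CPM. In the *Angptl7*-led region it was lower in both, at 877 and 665 against 899 and 791 CPM. That region has *Cilp2*, *Chad* and genes of osteocytes (*Sost*, *Mepe*) and red blood cells among its leading genes.

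In the Nf1Postn callus the members were spread over other regions. Of 27 with at least 20 UMIs per section, 8 were highest in the region led by *Hbb-bt*, a hemoglobin gene (8.25% of 11137 genes), 5 in the *Angptl7*-led (12.4%) and 5 in the *Gpnmb*-led region (12.2%). The *Hbb-bt*-led region held 394 Nf1Postn spots of shallow depth, with a median of 1088.5 UMIs, and the members summed to 1049 and 1019 CPM there. The precursors of blood cells divide in the marrow, and the markers of early granulocytes were at 125 and 139 CPM there, all 5 of them above 0, beside 27.4 and 17.9 CPM over the whole Nf1Postn callus. Erythroid markers were at 9179 and 14906 CPM and mature muscle markers at 78732 and 118137 CPM. The part of these cells in the values was not tested.

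*Mki67* stood at 229 and 222 CPM in the *Hbb-bt*-led region and at 63.3 and 33.6 CPM in all other Nf1Postn spots. It rested on 103 UMIs in 79 spots and made up 21.8% of the member UMIs of this region. *Ccna2* stood at 104 and 120 CPM against 36.0 and 19.9 CPM, and *Cdk1* at 108 and 116 against 39.7 and 25.1 CPM. *Ccne1*, a cyclin of S phase entry, stood at 33.3 and 18.5 against 14.3 and 6.59 CPM, on 8 and 4 UMIs in the region. *Ccne2*, another, stood at 20.8 and 23.2 against 9.31 and 3.29 CPM, on 5 and 5 UMIs. The intervals of the log2 ratio of *Ccne1* reached below 0 in both sections, at -0.07 to 2.32 and -0.46 to 2.97. That of *Ccne2* did so in section 1, at -0.56 to 2.54, but not in section 2, at 1.04 to 4.28. The helicase subunits went both ways: *Mcm2* was at 37.5 and 37.0 against 67.0 and 46.1 CPM, *Mcm3* at 49.95 and 32.4 against 56.8 and 35.7 CPM and *Mcm4* at 33.3 and 9.26 against 40.0 and 19.9 CPM, while *Mcm5* was at 29.1 and 23.2 against 28.9 and 14.2 CPM and *Mcm6* at 24.98 and 37.0 against 23.0 and 17.5 CPM. These rest on 2 to 12 UMIs per section in the region. *Kif20a*, a kinesin of cytokinesis, had 0 UMIs in the region.

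In all, 7 of 27 members were at least 2-fold higher in the *Hbb-bt*-led region in both sections (2.29% of 11137 genes), and none was 2-fold lower (2.21% of genes). The 7 include *Ccne1* on 8 and 4 UMIs in the region, *Ccne2* on 5 and 5 UMIs and *Top2a* on 4 and 2 UMIs. After thinning *Top2a* had 0 UMIs in the region. This region was singled out by its high sum of the same members, so the count is no added support. The other 5 measured members were below the filter. The region was also led by histone genes (*H1f1*, *H4f16* and *H3c4*), and with histone genes left out of the grouping, an alternative chosen after seeing the data, 353 of its spots were found again in a region of 391. There, 2 of 27 members, *Cenpf* and *Top2a*, were at least 2-fold higher in both sections (1.21% of genes), on 4 and 4 UMIs and on 4 and 2 UMIs in the region. *Mki67* was then at 133 and 187 CPM against 71.0 and 34.6 CPM, 1.87-fold and 5.41-fold, so its excess in section 1 was under 2-fold. *Ccna2* was 1.44-fold and 4.38-fold, and *Cdk1* 1.54-fold and 4.52-fold.

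Of the other cycle genes, 5 of 38 other mitotic genes were at least 2-fold lower in the Nf1Postn callus in both sections (1.5% of 13410 genes). *Ttk*, a checkpoint kinase, stood at 8.63 and 7.34 against 4.04 and 2.51 CPM, and *Gtse1* at 20.1 and 14.8 against 8.66 and 5.51 CPM. *Troap* stood at 22.9 and 21.2 against 10.4 and 8.69 CPM. *Ect2*, an exchange factor of cytokinesis, stood at 6.12 and 3.63 against 2.89 and 1.67 CPM. *Cdc25c*, a phosphatase that activates *Cdk1*, stood at 2.21 and 2.39 against 0.866 and 0.334 CPM. The list of other mitotic genes had a median log2 ratio of -0.67, with 33 lower in both sections (37.1% of genes). None of 27 other replication genes, 7 kinase inhibitors or 14 G1 genes was 2-fold apart, with medians of -0.42, -0.40 and -0.43. *Pttg1* was higher in both sections of the Nf1Postn callus, at 33.6 and 42.6 CPM in the control and 45.3 and 65.2 CPM in the Nf1Postn callus, and *Slbp*, which binds histone mRNA, stood at 68.5 and 60.9 against 83.2 and 62.8 CPM.

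Over 42 groups of spots (a region in a section of a callus), the genes outside the cycle lists whose log2(CPM + 1) was most like the sum of the members were *H3c2* (Pearson r 0.90), *H2bc18* (0.89), *H2bc3* (0.88), *H1f3* (0.87), *H2ac20* (0.85), *H3c3* (0.83), *H1f2* (0.83), *Tbrg1* (0.83), *H2bc11* (0.83) and *Pdia3* (0.82), of 8560 candidates. Of these 10, 8 are histone genes. Among the members, *Tyms* (0.71), *Mcm5* (0.70) and *Cdk1* (0.69) were closest to the sum of the others. The groups share sections, animals and depth, so these are descriptions.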

How the data were processed

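For each of the 2 sections, the deposited tables hold each gene's raw UMI counts in every spot, which the authors made from probe pairs for fixed tissue with Space Ranger 1.3.0 on mm39 per the labels, and exported from Partek Flow. The deposited values were treated like expected counts: 9 entries, none of them a member, were not whole and were rounded where counts were drawn. Genotype labels of spots came with the tables, 5 spots without one stayed out, and SpatialTime and cluster names of 1344 control spots came from the authors' supporting values. An entry without a gene name (6.81e-05% and 3.76e-05% of UMIs) was left out. Of 6380 spots, 128 control and 328 Nf1Postn spots had under 1000 UMIs. Section barcodes are slide positions, 2711 of which occur in both.

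The members and lists were chosen with earlier results of these data known. Regions were made with Python 3.11.15, igraph 0.11.9 and leidenalg 0.10.2 from log2(CPM + 1) of 16784 genes in at least 0.3% of spots, centred per section, with 20 principal components, 15 neighbours weighted by shared neighbours and Leiden resolution 0.5. All cell cycle lists were left out. Leading genes were ranked by their CPM over that of the remaining spots, given 500 or more UMIs. Ratios compare pooled CPM, with exact conditional binomial 95% intervals, and a group at 0 was given 3 counts. Genes with at least 20 UMIs per section over both groups were counted by fold, 2 or 1.5, the same way in both sections. Regions with at least 20 spots of each genotype and 10 per section were compared between genotypes. Named were members, of other cycle lists the 5 genes with most UMIs and any 2-fold apart, the 10 genes most like the sum, and leading genes. The zones, the minimum of 100000 UMIs for ranking regions and the histone alternatives were chosen after seeing the data. TMM factors came from edgeR 4.0.16 in R 4.3.3. Only the ratios, their intervals and the call at 1.5-fold were tested on simulated data, as UMI sums with known folds and Poisson error. The grouping into regions, the thinning and TMM were not simulated.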

Additional observations from a re-analysis of the deposited data

Results flagged for a closer look

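Among the 8 regions compared between calluses, those led by *Cfd* and *Angptl7* moved opposite ways, each in the same direction in both sections. In the *Cfd*-led region the log2 ratio of Nf1Postn to control for the summed members was 0.20 pooled, with 0.24 in section 1 and 0.17 in section 2. In the *Angptl7*-led region it was -0.15 pooled, with -0.04 and -0.25. The difference between these ratios was not tested, and each changed direction under some of the alternatives given next.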

How the results depend on the processing

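No paired analysis was possible because the 2 sections come from 1 block with 1 mouse per genotype and no test was run. Over the results and alternatives recomputed, 84 values moved by less than the spread between sections (counts by less than 1.5 times), 32 moved by more and 4 turned the direction of a ratio that was the same in both sections; the causes were not tested beyond what an alternative itself leaves out. For the ratios this spread was the standard deviation of the 2 section values. Ratios with 1 section left out are those same section values, so they are no separate check. The limit was also wide where the sections disagreed, such as 0.81 in the *Myh7*-led region. For the distance bins, which come from 1 section, the limit was set by the counting interval instead. Among the 84 and 32 values, 12 also changed sign, all of them ratios within the 6 regions whose sections already went opposite ways. Of these, 6 had 1 section left out and 6 came under other settings, at -0.19 to 0.41. For all members, the replication and the mitotic group, the log2 ratio of Nf1Postn to control was -2.32, -2.69 and -2.74 as a mean over spots of log2(CPM + 1), in which shallow spots with 0 UMIs weigh heavily, -0.25, -0.34 and -0.31 without muscle-led regions, and -0.086, -0.093 and -0.13 with the same mix of regions. Without regions led by red blood cell genes it was -1.03 for all members and -1.23 for the mitotic group. With 1 section left out, the ratio of all members ranged from -0.86 to -0.38, the highest against the lowest control region from 1.94 to 2.61, the *Ucma*-led over the *Clec3a*-led zone from 1.69 to 1.96, the number of members 2-fold apart between the *Ucma*-led and *Col10a1*-led regions from 15 to 18, and between the zones from 15 to 28. The number of members 2-fold apart between calluses was 1, with 4 under TMM, 9 at 1.5-fold, and a range of 2 to 14 with 1 section left out (14 without section 1). Within regions, the *Gpnmb*-led ratio was -0.49 at resolution 0.3, 0.41 at 1.0 and -0.46 with all genes kept in the clustering. The *Angptl7*-led ratio reversed to 0.015 after thinning and to 0.25 with histone genes left out, and was -0.44 at resolution 1.0. The *Hbb-bs*-led ratio was 0.74 with all genes and 0.69 without histone genes. The *Cfd*-led ratio was 0.078 after thinning and reversed to -0.29 at resolution 1.0 and -0.081 with all genes. The highest against the lowest control region was 1.65 after thinning. By the authors' cluster names the value was 1.00, for ossifying perichondrium over cartilage in section 1. That is another contrast, among clusters without muscle. The *Ucma*-led over the *Col10a1*-led region was 0.67 after thinning, with 17 members at 1.5-fold. The nearest against the farthest bin was 0.27 after thinning. Depth limits the low members: 12 of 32 could not be counted between the zones of cartilage and 5 in the *Hbb-bt*-led region.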
